A study of Mus musculus with 6 samples.

Results

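Kbtbd12, Mgll and 8 genes near them lie in 1 stretch of mouse chromosome 6, with other genes such as Gata2 between some of them. Transcript levels of these 10 genes were compared in satellite cells labelled as knockouts (KO) of Utx or of Jmjd3 and in Tdt Control cells. The 10 genes were Isy1, Cnbp, Rab7, Rpn1, Eefsec, Ruvbl1, Kbtbd12, Mgll, Abtb1 and Podxl2, in their order along the chromosome. They were chosen by name and by their place between 80 and 90 Mb, and the lead genes Kbtbd12 and Mgll were selected on their read counts in Utx KO against Tdt Control, where both were low. All 10 passed the low-count filter, out of 119 tested genes of 307 annotated in that interval and 17084 tested in all.

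The libraries were made from total RNA of satellite cells, the resident stem cells of skeletal muscle, sorted by fluorescence from adult C57BL/6 mice. All groups had cardiotoxin, a snake venom protein that kills muscle fibres, injected into tibialis anterior and gastrocnemius, and the cells were taken 30 h afterwards. The 3 genotypes, Utx KO, Jmjd3 KO and Tdt Control, had 2 libraries each. UTX (gene Kdm6a) and JMJD3 (gene Kdm6b) are related enzymes that take methyl groups off a repressive site on histone H3. The labels do not name the Cre driver or the deleted exons, do not say whether replicates came from separate animals, and do not spell out Tdt.

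The 10 genes share a place and not a pathway. KBTBD12 is a BTB-kelch protein, a family whose members commonly hold substrates for CUL3 ubiquitin ligases, and ABTB1 combines a BTB domain with ankyrin repeats. MGLL is monoacylglycerol lipase, which splits monoacylglycerols, including the endocannabinoid 2-arachidonoylglycerol, into fatty acid and glycerol. PODXL2 (endoglycan) is a sialomucin of the CD34 family that selectins can bind. The other 6 serve basic functions of the cell: RUVBL1 is an AAA+ ATPase of chromatin remodelling and chaperone complexes, EEFSEC brings selenocysteine to the ribosome, RPN1 is a subunit of oligosaccharyltransferase, RAB7 is a GTPase of late endosomes, ISY1 is a splicing factor, and CNBP is a zinc finger protein that binds single-stranded nucleic acid and whose human gene carries the repeat expansion of a form of myotonic dystrophy.

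In GRCm38 the 10 genes ran from Isy1 (start 87814269, minus strand) to Podxl2 (end 88875044, minus strand). Kbtbd12 (ENSMUSG00000033182.12) lay on the minus strand from 88545114 to 88637950. Mgll (ENSMUSG00000033174.17) lay on the plus strand from 88724412 to 88828360, so that the pair were divergent with 86461 bp between them. Ruvbl1 ended 47541 bp from Kbtbd12 on its other side. Beyond Mgll, Abtb1 followed after 7553 bp and Podxl2 573 bp after that.

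The start regions of the 3 genes with the lowest Utx KO values relative to Tdt Control are shown because these are the places where a shared promoter feature would be visible. RefSeq windows on GRCm38.p6 run from 250 bases before to 50 bases after the start, 5′ to 3′ on the gene's strand, and capitals mark E-boxes (CANNTG, searched on both strands, which for these letters are the same). The Kbtbd12 window is chr6:88627380-88627679 (minus strand), 13 bases from the annotated start of the transcript Kbtbd12-202. The Mgll window is chr6:88724162-88724461 (plus strand), at the start of Mgll-204, and the Podxl2 window is chr6:88874997-88875296 (minus strand), 2 bases from the start of Podxl2-210.
Kbtbd12: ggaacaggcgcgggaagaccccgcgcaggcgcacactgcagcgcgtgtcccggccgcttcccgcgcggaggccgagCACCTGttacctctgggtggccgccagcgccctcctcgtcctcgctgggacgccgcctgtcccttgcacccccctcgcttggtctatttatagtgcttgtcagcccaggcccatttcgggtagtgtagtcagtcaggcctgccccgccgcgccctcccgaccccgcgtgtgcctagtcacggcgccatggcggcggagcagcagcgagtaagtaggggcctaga
Mgll: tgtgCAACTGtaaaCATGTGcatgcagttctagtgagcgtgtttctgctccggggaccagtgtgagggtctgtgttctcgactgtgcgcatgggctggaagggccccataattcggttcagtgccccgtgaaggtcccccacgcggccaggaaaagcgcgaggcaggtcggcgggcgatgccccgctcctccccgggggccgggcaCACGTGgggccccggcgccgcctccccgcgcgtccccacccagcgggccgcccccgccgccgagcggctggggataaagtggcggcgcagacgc
Podxl2: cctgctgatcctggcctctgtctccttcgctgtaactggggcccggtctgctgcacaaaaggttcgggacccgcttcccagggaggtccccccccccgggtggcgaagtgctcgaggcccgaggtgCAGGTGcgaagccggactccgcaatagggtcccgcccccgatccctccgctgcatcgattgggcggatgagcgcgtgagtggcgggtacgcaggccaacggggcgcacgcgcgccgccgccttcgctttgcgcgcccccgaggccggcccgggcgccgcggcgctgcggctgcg
All 3 windows were rich in G and C, with 69.7% in Kbtbd12, 70% in Mgll and 73.3% in Podxl2, against a median of 52.7% over 32817 RefSeq mouse promoters of the same length. They held 32, 32 and 39 CpG in that order, against a median of 7. The windows of the other listed genes were not described, so these values mark no difference between the 3 and the rest. Kbtbd12 had 1 E-box, Mgll 3 and Podxl2 1, and 72.3% of all promoters had at least 1. A TATA box (TATAAA, on either strand) occurred in the Kbtbd12 window and in no other of the 3, against 13.6% of all promoters. A CCAAT box (CCAAT) occurred in the Podxl2 window alone, against 37.4% of all. GC boxes (GGGCGG) occurred in the Mgll window, 1 match, and in the Podxl2 window, 2 matches, against 35.6% of all promoters with any. A match describes letters and is no site of binding.

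The libraries held 53750675 and 59768154 estimated reads in Utx KO, 64928614 and 63607780 in Jmjd3 KO, and 77675388 and 65893124 in Tdt Control. Kdm6a had 7.68 and 7.38 CPM (read counts divided by the normalised size of the library and brought to 1 common scale) in Utx KO, 30.3 and 32.4 in Jmjd3 KO and 32.85 and 33.96 in Tdt Control. Kdm6b had 22.97 and 22.2 CPM in Utx KO, 15.9 and 16.5 CPM in Jmjd3 KO, and 29.9 and 22.7 CPM in Tdt Control, so that the Jmjd3 label rests on a smaller difference (log2 fold change -0.70 ± 0.12 SE over Tdt Control, adjusted p = 0.0243 by edgeR's quasi-likelihood test). Leaving out either Jmjd3 KO library, replicate 1 or replicate 2, ended that call (adjusted p = 0.123 to 0.167). The summed level of 7 satellite cell markers, Pax7, Myod1 and Myf5 among them, was 2883 and 2989 CPM in Utx KO, 3115 and 3176 CPM in Jmjd3 KO, and 2901 and 2872 CPM in Tdt Control. Single members went in opposite directions. Myf5, a regulator of the myogenic lineage, was higher in Utx KO (log2 fold change 0.44 ± 0.05 SE, adjusted p = 0.0153 by edgeR), and Myod1, another, was lower in both Utx KO (-0.22 ± 0.04, adjusted p = 0.0461) and Jmjd3 KO (-0.22 ± 0.04, adjusted p = 0.0336). Des, the intermediate filament gene with the highest level of the 7, was higher in Jmjd3 KO (0.35 ± 0.04, adjusted p = 0.00446). The Myod1 calls were lost in all 6 fits that left out 1 library and the Myf5 call in the 4 that left out a Utx KO or Tdt Control library, while the Des call was kept in every alternative.

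In control cells the 10 genes spanned a wide range of levels. On the TPM scale, which allows for transcript length, Cnbp stood highest, at 398 and 409 TPM in the Tdt Control libraries. Rpn1 (86.9 and 94.8 TPM), Rab7 (62.9 and 65.7 TPM), Isy1 (50.2 and 51.5 TPM) and Ruvbl1 (46.5 and 47.7 TPM) followed, then Eefsec (13.4 and 12.2 TPM). Mgll had 4.88 and 5.13 TPM in Tdt Control. Kbtbd12 (2.17 and 2.26 TPM) and Podxl2 (2.01 and 2.19 TPM) overlapped, and Abtb1 was lowest, at 0.739 and 0.708 TPM. No other neighbours in that order overlapped. In Utx KO the bottom of the order changed, with Kbtbd12 (0.579 and 0.906 TPM) below Abtb1 (0.913 and 0.979 TPM). The TPM of Isy1 and Rpn1 lay mostly on transcripts not annotated as protein-coding, since the coding ones of Isy1 had 7.28 and 7.16 TPM and that of Rpn1 29.8 and 32.6 TPM in Tdt Control.

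**Figure D1:**
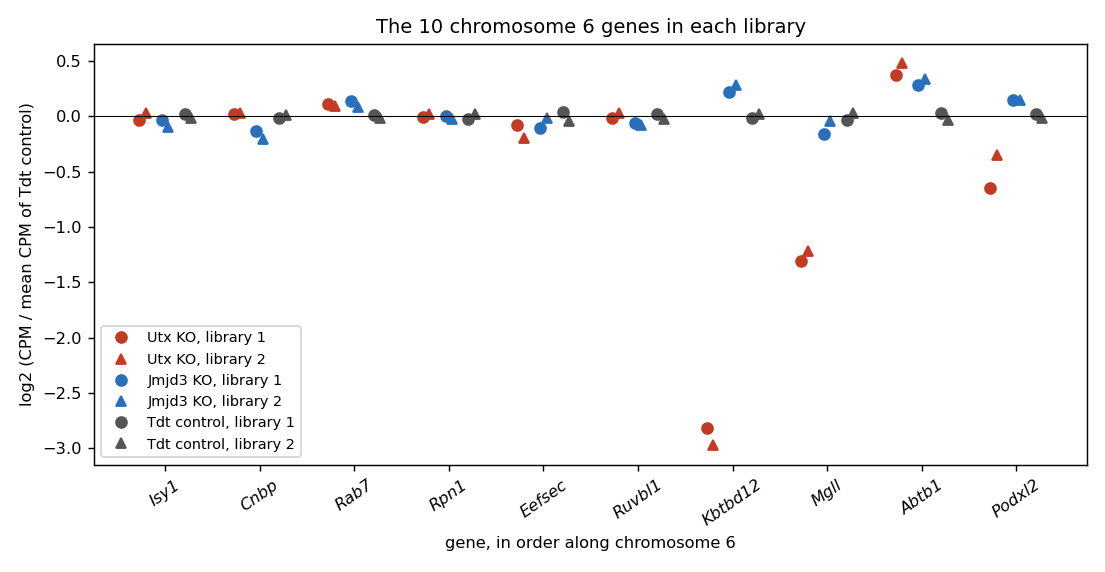
Level of each of the 10 genes in each library, as the log2 ratio of its CPM to the mean CPM of the 2 Tdt Control libraries, with genes in chromosome order. In Utx KO, Kbtbd12 and Mgll lie far below their controls, Podxl2 lies below and Abtb1 above, and the other 6 stay close to 0.

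In Utx KO against Tdt Control, Kbtbd12 and Mgll were far lower, and Ruvbl1 and Abtb1 on either side of them were not lower. Since this comparison chose the genes, their values in it are a description without a test. Of the 10 genes, 2 (Kbtbd12 and Mgll) passed an adjusted p under 0.05, beside 1.72% of all genes tested, and nothing is read from that count. The groups did not overlap for 7 of the 10, 4 lower and 3 higher in Utx KO, beside 45.6% of all genes (23.3% lower, 22.3% higher). The median log2 fold change of the 10 was 0.004, and that of all genes -0.002. In bulk RNA a smaller number of expressing cells and less RNA per cell cannot be told apart.

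Kbtbd12 had 1.82 and 1.63 CPM in Utx KO, 15.0 and 15.6 CPM in Jmjd3 KO, and 12.7 and 13.0 CPM in Tdt Control. Both Utx KO libraries lay far below all 4 others, and both Jmjd3 KO libraries lay slightly above the controls. The log2 fold change of Utx KO over Tdt Control was -2.89 ± 0.09 (SE, 2 libraries per group), a level 7.43-fold lower. These levels rest on 98 and 96 estimated reads in Utx KO, 982 and 1008 in Jmjd3 KO, and 963 and 855 in Tdt Control.

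The protein-coding transcripts of Kbtbd12 differed by more than the gene as a whole. Its 3 coding transcripts together had 0.698 and 0.478 CPM in Utx KO, 14.1 and 14.8 CPM in Jmjd3 KO, and 11.9 and 12.4 CPM in Tdt Control. Their mean was 0.588 ± 0.155 CPM in Utx KO and 12.1 ± 0.368 CPM in Tdt Control (SD, n = 2 each), 20.6-fold lower in Utx KO. The 4 transcripts of other types (retained introns and a processed transcript) had 1.13 and 1.15 CPM in Utx KO, 0.838 and 0.784 CPM in Jmjd3 KO, and 0.825 and 0.615 CPM in Tdt Control, so they were not lower in Utx KO. Coding transcripts took 38.3% and 29.3% of the gene's estimated reads in Utx KO, 94.4% and 94.98% in Jmjd3 KO, and 93.5% and 95.3% in Tdt Control. The gene's small remainder in Utx KO was thus largely assigned to transcripts not annotated as coding.

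Among single transcripts, Kbtbd12-202, the 4644-base coding form that starts at 88627442, had 37.5 and 28.1 estimated reads in Utx KO, 825 and 808 in Jmjd3 KO, and 766 and 695 in Tdt Control. Kbtbd12-206, a shorter coding form that starts further into the gene at 88618501, had 0 in both Utx KO libraries, 102 and 149 in Jmjd3 KO, and 135 and 119 in Tdt Control. Kbtbd12-203, a retained-intron form that starts at 88627448 and ends early at 88613751, had 37.5 and 55.6 in Utx KO, 25.5 and 14.9 in Jmjd3 KO, and 30.2 and 4.1 in Tdt Control. Kbtbd12-205, a retained-intron form inside the gene, had 8.2 and 0 in Utx KO, 14.5 and 15.6 in Jmjd3 KO, and 14.4 and 14.4 in Tdt Control. Both coding forms with reads were thus far lower in Utx KO, while the retained-intron forms did not share 1 direction. Salmon shares out reads that fit several transcripts, so these splits are estimates.

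The size of the Kbtbd12 difference depended on whether transcript length was taken into account. The mean effective length, weighted by transcript abundance, was 2214 and 1241 bases in Utx KO, 4382 and 4409 in Jmjd3 KO, and 3951 and 4071 in Tdt Control. The Utx KO lengths rest on few reads. In Utx KO replicate 2 the 291-base form Kbtbd12-207 made 38.5% of the gene's TPM from 5.4 estimated reads, and it had 0 in replicate 1. With the mean effective lengths as offsets the log2 fold change of Kbtbd12 was -1.61 ± 0.18 in place of -2.89. The authors' deposited table gives -1.55 with a standard error of 0.203. For the coding transcripts alone the TPM, which is per length, was 0.0805 ± 0.022 in Utx KO and 1.75 ± 0.106 in Tdt Control (SD, n = 2 each), 21.8-fold lower in Utx KO. Read counts per gene thus lie between the measure over all forms per length and the measure over coding forms.

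**Figure D2:**
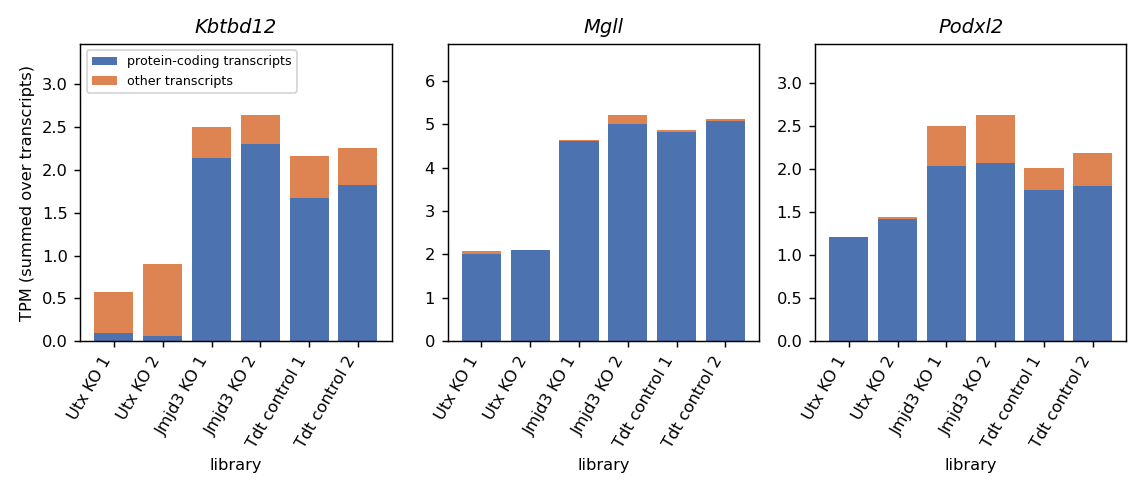
TPM of Kbtbd12, Mgll and Podxl2 in each library, stacked by transcripts annotated as protein-coding and all others, each panel with its own axis from 0. The coding part of Kbtbd12 nearly vanishes in both Utx KO libraries while the other part stays, whereas Mgll consists of coding transcripts in all 6 libraries and is lower as a whole in Utx KO.

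Mgll had 10.7 and 11.5 CPM in Utx KO, 23.9 and 25.9 CPM in Jmjd3 KO, and 26.1 and 27.2 CPM in Tdt Control. The Utx KO libraries lay well below the other 4, and Jmjd3 KO just below the controls without overlap. The log2 fold change of Utx KO over Tdt Control was -1.26 ± 0.07 (SE), 2.40-fold lower. Unlike in Kbtbd12, nearly all reads of Mgll belonged to 1 coding transcript, Mgll-204, in every group: its estimated reads were 573 and 674 in Utx KO, 1562 and 1602 in Jmjd3 KO, and 1856 and 1717 in Tdt Control. Taking transcript length into account left its log2 fold change at -1.26 ± 0.07, and the authors' deposited table gives -1.24 with a standard error of 0.105.

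Podxl2 had 4.09 and 5.03 CPM in Utx KO, 7.13 and 7.11 CPM in Jmjd3 KO, and 6.51 and 6.35 CPM in Tdt Control. The Utx KO libraries were the lowest but differed from each other more than the other pairs did. The log2 fold change of Utx KO over Tdt Control was -0.49 ± 0.12 (SE), and it moved to -0.35 without Utx KO replicate 1 and to -0.65 without Utx KO replicate 2. With transcript length offsets it was -0.66 ± 0.12, and the authors' deposited table gives -0.56 with a standard error of 0.186. The reads went to Podxl2-210 in 5 libraries and to Podxl2-201, which starts further into the gene, in Utx KO replicate 2 (295 estimated reads, with 0 for Podxl2-210), so the start used in Utx KO is not settled by these files.

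Abtb1, between Mgll and Podxl2, did not share their direction. It had 2.57 and 2.77 CPM in Utx KO, 2.42 and 2.51 CPM in Jmjd3 KO, and 2.03 and 1.94 CPM in Tdt Control, with a log2 fold change of 0.43 ± 0.14 (SE) for Utx KO over Tdt Control. Both knockouts lay above the controls. The authors' deposited table gives 0.04 with a standard error of 0.0851 for the same gene. How that value was computed is not stated, so it may not be the same measure. Its levels rest on 138 and 163 estimated reads in Utx KO, 159 and 162 in Jmjd3 KO, and 154 and 128 in Tdt Control.

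On the other side of Kbtbd12 the 6 genes of basic cell functions had log2 fold changes between -0.14 and 0.10 in Utx KO over Tdt Control. Ruvbl1, the nearest of the 6, had 139 and 144 CPM in Utx KO, 135 and 134 CPM in Jmjd3 KO, and 143 and 139 CPM in Tdt Control, so that Utx KO and control overlapped (0.01 ± 0.05 SE, log2). Eefsec, the next, had 44.0 and 40.7 CPM in Utx KO, 43.2 and 46.0 CPM in Jmjd3 KO, and 47.7 and 45.3 CPM in Tdt Control. Its log2 fold change in Utx KO over Tdt Control was -0.14 ± 0.06 (SE), and 0.04 with transcript length offsets.

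Rpn1 had 250.3 and 254.4 CPM in Utx KO, 250.9 and 247.4 CPM in Jmjd3 KO, and 247.2 and 254.9 CPM in Tdt Control. Isy1 had 94.7 and 98.7 CPM in Utx KO, 94.5 and 90.4 CPM in Jmjd3 KO, and 97.8 and 95.5 CPM in Tdt Control. Both overlapped between Utx KO and control. Rab7 had 197.0 and 194.8 CPM in Utx KO, 200.5 and 193.4 CPM in Jmjd3 KO, and 183.6 and 180.8 CPM in Tdt Control, slightly above the controls in both knockouts (0.10 ± 0.05 SE, log2, for Utx KO). Cnbp had 740.3 and 748 CPM in Utx KO, 665 and 635 CPM in Jmjd3 KO, and 723 and 739.7 CPM in Tdt Control, so that both Jmjd3 KO libraries lay below the other 4.

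Jmjd3 KO against Tdt Control was not used to choose the genes and was tested, although it shares the control libraries with the comparison above. None of the 10 passed an adjusted p under 0.05 by edgeR's quasi-likelihood test, beside 3.0% of all genes, while 3 (Cnbp, Kbtbd12 and Rab7) had an unadjusted p under 0.05, beside 20.0% of all genes. DESeq2 called 1 of the 10, Cnbp, beside 649 genes higher and 434 lower over the 17084 genes. The groups did not overlap for 8 of the 10, 4 lower and 4 higher in Jmjd3 KO, beside 51.8% of all genes (25.5% lower, 26.2% higher). The median log2 fold change of the 10 was -0.036, and that of all genes -0.005.

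Kbtbd12 had a log2 fold change of 0.25 in Jmjd3 KO over Tdt Control (95% interval 0.07 to 0.43, adjusted p = 0.127 by edgeR). Mgll had -0.10 (95% interval -0.25 to 0.05, adjusted p = 0.448) and Podxl2 0.15 (95% interval -0.11 to 0.40, adjusted p = 0.512). The Utx KO values of the 3 genes lay outside these intervals. That is a description and no test, because the lead genes were chosen for low Utx KO counts. The errors of the Utx KO values are also left out of it. Abtb1 had 0.31 (95% interval -0.02 to 0.64, adjusted p = 0.276), an interval that includes its Utx KO value of 0.43.

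Cnbp came closest to the threshold in Jmjd3 KO, with a log2 fold change of -0.17 over Tdt Control (95% interval -0.26 to -0.08, adjusted p = 0.0678 by edgeR). DESeq2 gave -0.17 with an adjusted p of 0.0169, the fit without a low-count filter -0.16 with 0.0144, and the other settings adjusted p from 0.0587 to 0.349. The authors' deposited table gives -0.14 with a standard error of 0.0535 and an adjusted p of 0.0382. Rab7 had 0.11 (95% interval 0.002 to 0.22, adjusted p = 0.242), and Ruvbl1, Isy1, Eefsec and Rpn1 lay between -0.07 and -0.01 with adjusted p from 0.506 to 0.922.

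Set directly against each other, the knockouts differed most in Kbtbd12, with a log2 fold change of 3.15 ± 0.09 (SE) for Jmjd3 KO over Utx KO, an 8.85-fold higher level. Mgll was 1.16 ± 0.07 higher on the log2 scale, Podxl2 0.64 ± 0.12 higher, and Cnbp had -0.19 ± 0.04. These 4 of the 10 genes passed the threshold, beside 8.02% of all genes tested (5.13% higher, 2.89% lower), and since the Utx KO libraries are those that chose the genes, nothing is read from that count. Kbtbd12 and Mgll kept their calls in every alternative, but the choice of genes used the same Utx KO libraries. Nothing is read from that either. Cnbp lost its call with the replicate block and in each of the 4 fits that left out a Jmjd3 KO or Utx KO library, and Podxl2 lost its own without Jmjd3 KO replicate 1, Jmjd3 KO replicate 2 or Utx KO replicate 1. The groups did not overlap for 7 of the 10, 4 lower and 3 higher in Jmjd3 KO, beside 57.2% of all genes (28.6% lower and 28.6% higher). The other 6 genes had log2 fold changes between -0.12 (Abtb1) and 0.08 (Eefsec).

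**Figure D3:**
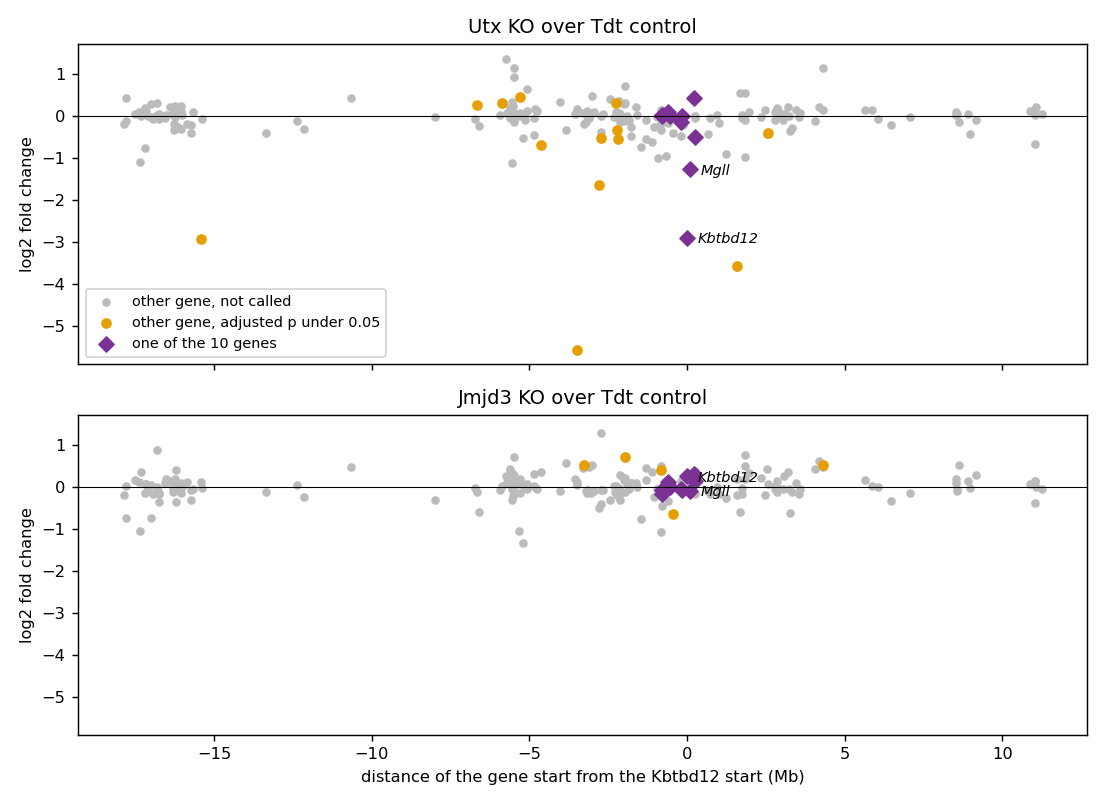
Log2 fold change of every tested gene between 70 and 100 Mb of chromosome 6 against the distance of its start from that of Kbtbd12 in Mb, for Utx KO over Tdt Control (top) and Jmjd3 KO over Tdt Control (bottom), with positive distances toward higher coordinates. In Utx KO the low points, the neighbours Kbtbd12 and Mgll among them, lie among genes that are mostly close to 0 (quartiles of -0.18 and 0.12 between 80 and 90 Mb with the 10 left out), and Kbtbd12 and Mgll are near 0 in Jmjd3 KO.

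The wider neighbourhood did not move as a block. Between 80 and 90 Mb, the 109 tested genes other than the 10 had a median log2 fold change of 0.01 in Utx KO over Tdt Control, with quartiles of -0.18 and 0.12, and all genes tested had quartiles of -0.13 and 0.11. Of the 109, 4 passed the threshold as higher (Hk2, Pcyox1, Mrpl19 and Mob1a) and 6 as lower (Dysf, Ptges3-ps, C87436, Tprkb, Spr-ps1 and Tia1), beside 0.790% higher and 0.925% lower over all genes. With Kbtbd12 and Mgll, 10.1% of the genes tested in the interval passed, but the interval was chosen with these results known. When 1 library at a time was left out, fewer genes passed in the interval and over all genes alike. Of the other genes in the interval, Spr-ps1 was the 1 gene kept under every alternative that tested it.

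Several of these neighbours resemble Kbtbd12 in being low in both Utx KO libraries and not in Jmjd3 KO. They were named because they passed as lower in Utx KO, so the likeness is a description and no test. Spr-ps1, a transcribed pseudogene of sepiapterin reductase, had 1 and 2 estimated reads in Utx KO, 89 and 92 in Jmjd3 KO, and 95 and 95 in Tdt Control. Dysf, which encodes dysferlin, a membrane repair protein of muscle, had 14.1 and 16.3 CPM in Utx KO, 29.1 and 33.8 CPM in Jmjd3 KO, and 24.8 and 24.2 CPM in Tdt Control (log2 fold change of Utx KO over Tdt Control -0.69 ± 0.09 SE). Both Jmjd3 KO libraries lay above the controls for Dysf, the opposite of Utx KO. In the flanks, 1 of the 48 genes tested between 70 and 80 Mb passed in Utx KO, and 2 of the 51 between 90 and 100 Mb, each of them lower. These shares were 2.08% and 3.92%, beside 1.72% of all genes. Dnah6, an axonemal dynein heavy chain gene between 70 and 80 Mb, had 18 and 13 estimated reads in Utx KO, 133 and 160 in Jmjd3 KO, and 179 and 120 in Tdt Control. Between 90 and 100 Mb, the vomeronasal receptor gene Vmn1r53 had 2 and 1 estimated reads in Utx KO, 22 and 28 in Jmjd3 KO, and 30 and 18 in Tdt Control, low counts in every library. Fbln2, which encodes a matrix protein of the fibulin family, had 72.6 and 83.0 CPM in Utx KO, 107 and 109 CPM in Jmjd3 KO, and 103 and 103 CPM in Tdt Control. The Vmn1r53 and Fbln2 calls were lost with transcript length offsets, with the replicate block and with only the 4 libraries compared. Many genes that did not pass lay between these and the 10.

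In Jmjd3 KO against Tdt Control, 4 of the 109 other genes passed the threshold by edgeR's test, beside 3.0% of all genes (1.97% higher, 1.03% lower). Mxd1, a MYC antagonist, rose in Jmjd3 KO, at 36.1 and 31.7 CPM against 20.99 and 20.5 CPM in Tdt Control (log2 fold change 0.71 ± 0.07 SE, adjusted p = 0.00369). Rab11fip5, an effector of recycling endosomes (0.51 ± 0.06, adjusted p = 0.00904), and Rab43, a GTPase of the Golgi (0.40 ± 0.07, adjusted p = 0.0338), also rose, while Gata2, a transcription factor of blood stem cells that lies between Rpn1 and Eefsec, fell (-0.65 ± 0.11, adjusted p = 0.0302). Mxd1 kept its call under every alternative. The other 3 lost theirs when Jmjd3 KO replicate 1, Jmjd3 KO replicate 2 or Tdt Control replicate 1 was left out, and Rab43 also when Tdt Control replicate 2 was (adjusted p = 0.0589 to 0.218). Gata2 further lost its call with the replicate block and Rab43 with transcript length offsets.

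By a measure that includes the size of a change, some genes elsewhere were closer to Kbtbd12 or Mgll than these were to each other. Likeness was the mean absolute difference in log2 CPM, centred on each gene's mean over the 6 libraries, among 9835 genes of at least 5 CPM on average. The gene most like Kbtbd12 was Kdm6a (0.383), the deleted gene itself, followed by Susd5 (0.679), Sbsn (0.747), Mgll (0.775) and Ptges3-ps (0.782), and Podxl2 ranked 82. The genes most like Mgll were Chil3 (0.0993), Nwd1 (0.131), Sbsn (0.132), Entpd4 (0.148) and Arnt2 (0.150), all on other chromosomes, and Podxl2 ranked 44. From Mgll, Kbtbd12 ranked 9788 of the 9835 (0.775), near the bottom, in a measure that takes in the size of a change as well as its direction. Rpn1 (0.541) and Cnbp (0.585), which hardly differed between Utx KO and control, ranked closer to Mgll than Kbtbd12 did. The ranks thus cannot tell whether Kbtbd12 and Mgll change together. The pattern these lists share is a low level in the 2 Utx KO libraries, so they describe 6 points and 3 groups.

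Known partners of the 10 proteins were followed in 8 lists. None of the 149 genes tested in them passed the threshold in Utx KO against Tdt Control by edgeR, 16 had an unadjusted p under 0.05, and DESeq2 called 1, Cd34. Of the 19 tested genes of monoacylglycerol and endocannabinoid metabolism, 1 had an unadjusted p under 0.05 in Utx KO, and their median log2 fold change was 0.001. The 26 genes of CUL3 and its BTB-kelch adaptors had 2 at an unadjusted p under 0.05 and a median of 0.008. The 7 tested CD34 family sialomucins and selectins had 3 and a median of -0.18, with Cd34 itself at 266 and 249.7 CPM in Utx KO, 304 and 301 CPM in Jmjd3 KO, and 286 and 299 CPM in Tdt Control. The RUVBL complexes (25 genes), selenoprotein synthesis (20), oligosaccharyltransferase (12), RAB7 and late endosome fusion (22) and spliceosome activation, where ISY1 acts (18), had 1 to 3 genes at an unadjusted p under 0.05 and medians from -0.02 to 0.035, beside 16.2% of all genes and an overall median of -0.002.

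In Jmjd3 KO against Tdt Control, 23 of the 149 had an unadjusted p under 0.05, beside 20.0% of all genes. DESeq2 called 7, beside 649 genes higher and 434 lower over all genes. By edgeR 3.0% of all genes passed. In the lists of monoacylglycerol metabolism, selenoprotein synthesis, RAB7 fusion and CD34 family sialomucins 1 gene each rose, and the other 4 lists had none. In the selenoprotein list this was Selenon, the selenoprotein whose loss in humans causes a congenital myopathy (48.1 and 45.5 CPM in Jmjd3 KO against 38.2 and 37.5 CPM in Tdt Control, log2 fold change 0.31 ± 0.05 SE, adjusted p = 0.0213 by edgeR). That call was lost in each of the 4 fits that left out 1 of these libraries (adjusted p from 0.0815 to 0.178). Dagla, which makes the MGLL substrate 2-arachidonoylglycerol, had 7.22 and 8.35 CPM in Utx KO, 10.9 and 11.3 CPM in Jmjd3 KO, and 8.96 and 8.96 CPM in Tdt Control, and did not pass in either knockout against the control. It passed in Jmjd3 KO over Utx KO (0.51 ± 0.09 SE, log2, adjusted p = 0.0181 by edgeR), as did 8.02% of all genes. Leaving out Jmjd3 KO replicate 1, Jmjd3 KO replicate 2 or Utx KO replicate 1 ended that call.

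Markers of cells that could carry these transcripts into the sort were set beside them. Adipocytes use MGLL heavily. Adipoq, a defining adipocyte gene, had 1 and 0 estimated reads in Utx KO, 1 and 0 in Jmjd3 KO, and 0 and 0 in Tdt Control, and Cidec and Lep had none in any library. The 3 tested of 9 adipocyte genes summed to 19.6 and 17.1 CPM in Utx KO, 15.0 and 16.1 CPM in Jmjd3 KO, and 17.0 and 18.5 CPM in Tdt Control. The summed level of 12 mature fibre genes was 5439 and 6379 CPM in Utx KO, 7705 and 8018 in Jmjd3 KO, and 6002 and 6098 in Tdt Control. Utx KO overlapped the controls, and 1 of the 12 (Tnnt3) fell in Utx KO (log2 fold change -0.33 ± 0.06 SE, adjusted p = 0.0463 by edgeR).

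The 8 macrophage and monocyte genes summed to 150.3 and 180.1 CPM in Utx KO, 262 and 229 in Jmjd3 KO, and 166 and 196 in Tdt Control. Cd14 is the largest part of that sum, and the other 7 summed to 72.1 and 89.5 CPM in Utx KO, 130.2 and 122.5 in Jmjd3 KO, and 97.0 and 121.0 in Tdt Control, without overlap between Utx KO and control. In Utx KO over Tdt Control 6 of the 8 had a log2 fold change below 0, with a median of -0.47 and 6 at an unadjusted p under 0.05. Over all genes 16.2% had such a p, and 0.925% passed the threshold as lower. By edgeR 1 of them (Fcgr1) fell (-0.79 ± 0.14, adjusted p = 0.043), and DESeq2 called 3. The Tnnt3 and Fcgr1 calls were lost in each of the 6 fits that left out 1 library (adjusted p = 0.07 to 0.225).

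The 8 fibro-adipogenic genes summed to 290 and 322 CPM in Utx KO, 379 and 351 in Jmjd3 KO, and 286 and 315 in Tdt Control. Most of that sum is Gsn, which was above the controls in Utx KO, and the other 7 summed to 77.5 and 100.7 CPM in Utx KO, 152 and 138 in Jmjd3 KO, and 114 and 124 in Tdt Control, again without overlap. The median log2 fold change of the 8 in Utx KO was -0.29, with 7 below 0, 5 at an unadjusted p under 0.05, none past the threshold by edgeR and 1 (Gsn) by DESeq2. The 8 endothelial genes summed to 46.6 and 42.4 CPM in Utx KO, 48.1 and 58.8 in Jmjd3 KO, and 54.5 and 59.4 in Tdt Control, lowest in Utx KO. Their median there was -0.38, with 7 below 0, 5 at an unadjusted p under 0.05, none past the threshold by edgeR and 1 (Cdh5) by DESeq2. Over all genes, 16.2% had an unadjusted p under 0.05 in Utx KO against Tdt Control. Over all their markers, the macrophage and fibro-adipogenic sums in Utx KO overlapped the controls, and the endothelial sum was lower. With Cd14 and Gsn left out, the macrophage and fibro-adipogenic sums were lower too in both Utx KO libraries. Cd14 and Gsn were themselves higher in Utx KO than in the controls. Leaving them out was decided after the values were seen.

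The 7 tested neutrophil genes of 8 had a summed level of 143 and 172 CPM in Utx KO, 213 and 163 in Jmjd3 KO, and 104 and 114 in Tdt Control, and both knockouts lay above the controls. Hdc, which makes histamine, rose in Utx KO (0.79 ± 0.11, adjusted p = 0.0239 by edgeR). In Jmjd3 KO over Tdt Control 3 of the 7 rose, Hdc, Csf3r and S100a9 (0.68 to 1.12, adjusted p = 0.00368 to 0.0207 by edgeR), as did 3 of the 12 fibre genes, Atp2a1, Mybpc2 and Myh4 (0.27 to 0.77, adjusted p = 0.00711 to 0.0336), and 2 of the 8 macrophage genes, Cd14 and Tyrobp (0.73 and 0.56, adjusted p = 0.0206 and 0.046). Over all genes 1.97% rose in Jmjd3 KO and 0.790% in Utx KO. Hdc and Myh4 kept their Jmjd3 KO calls in every alternative, and the other 6 lost theirs in 3 to 6 fits that left out 1 library. The Hdc call in Utx KO was lost in the 4 fits that left out a Utx KO or Tdt Control library. The 5 tested erythroid genes of 6 summed to 43.2 and 41.5 CPM in Utx KO, 28.1 and 37.5 in Jmjd3 KO, and 31.6 and 38.1 in Tdt Control, slightly higher in Utx KO. The part of these cells in the Kbtbd12 and Mgll values was not tested.

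Overlapping genes took few reads from the 3 that differed most in Utx KO. Gm26588, antisense across the Mgll start, had 0 to 2 estimated reads per library, and Gm15612, antisense to Podxl2, had 3 to 7. No annotated gene overlapped Kbtbd12. No source used here says whether the counting used strand.

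**Figure D4:**
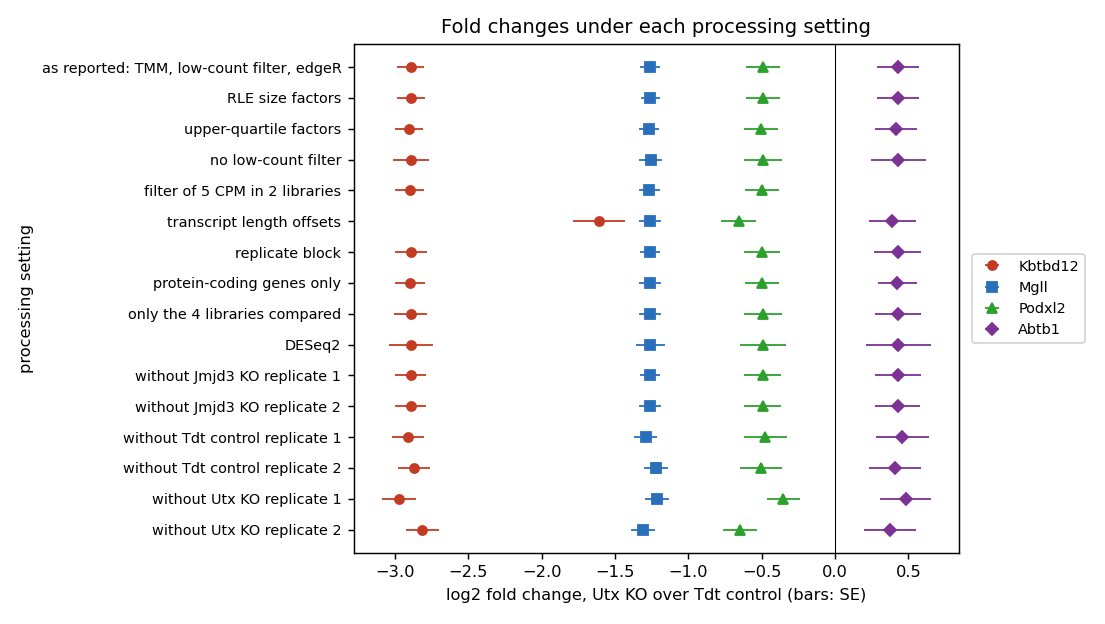
Log2 fold change of Utx KO over Tdt Control for Kbtbd12, Mgll, Podxl2 and Abtb1 under each processing setting, with bars of 1 SE. Kbtbd12 and Mgll, both chosen for low Utx KO counts, stay below 0 in all settings. Only transcript length offsets move Kbtbd12 far, from -2.89 to -1.61. Abtb1 has no value under the filter of 5 CPM in 2 libraries.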

How the data were processed

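RNA sequencing libraries of satellite cells, 2 per genotype, were used. Per the submitters' processing notes, the builds were mm10 and GRCm38 and the tools Salmon 1.1.0, cutadapt 2.6 and DESeq2 1.28.1 (no roles stated). The annotation release and any use of strand are not given in the sources used here. Per the file headers, the deposited quantification files give TPM and estimated counts per transcript. The authors' deposited tables give a mean signal per gene, log2 fold changes with errors, and raw and adjusted p-values.

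Estimated counts were summed per gene through GENCODE M21 and rounded. Unmatched transcripts (884) held 0.151% to 0.175% of the reads. All libraries were fitted together in edgeR 4.0.16 under R 4.3.3 (TMM, its low-count filter, quasi-likelihood test), with 17084 genes, a biological coefficient of variation of 0.0844 and a Benjamini-Hochberg threshold of 0.05. Replicates are not stated to be separate animals, so p-values measure the spread between these samples, which may be technical. Intervals are 95% intervals from the fit.

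The members, partner lists and marker lists were chosen with earlier results of these data known. Other named genes were those that passed between 80 and 90 Mb, up to 4 in each flank (70 to 80 and 90 to 100 Mb), up to 4 per list, and the 5 most like Kbtbd12 or Mgll. Genes singled out by further features, and the lead list examples, were chosen after their values were seen, as were marker sums without the most abundant gene.

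On simulated data, folds of 1.5, 2 and 4 were recovered for 48.6%, 68.7% and 88.5% of changed genes in Jmjd3 KO against Tdt Control, with 6 false among 141 calls. Alternatives were DESeq2 1.42.0, other normalizations and filters, length offsets, a replicate block, fewer libraries and each library left out.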

Additional observations from a re-analysis of the deposited data

How the results depend on the processing

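Kbtbd12 and Mgll kept their sign in Utx KO over Tdt Control under all 15 alternatives. Their log2 fold changes ran from -2.97 to -1.61 for Kbtbd12 and from -1.31 to -1.21 for Mgll. Both genes were chosen for low counts in these same Utx KO libraries, so nothing is read from the kept sign. The numbers of genes passing the threshold over the whole table changed between settings. In Utx KO against Tdt Control 293 genes passed, against 1399 with no low-count filter, 131 with transcript length offsets, 119 with only the 4 libraries compared and 698 with DESeq2, and 16 to 96 when 1 library was left out. In Jmjd3 KO against Tdt Control 513 passed, against 1872 with no filter, 330 with length offsets and 1083 with DESeq2, and 113 to 434 when 1 library was left out. In Jmjd3 KO against Utx KO 1370 passed, against 2856 with no filter, 790 with length offsets, and 291 to 1387 when 1 library was left out. Length offsets and DESeq2 used the same libraries and the same 17084 genes, the fit with no filter used more genes, and the other fits named used fewer libraries; the cause was not tested.

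Of the 10 genes, 0 passed in Jmjd3 KO against Tdt Control, and 1 (Cnbp) with no filter and with DESeq2. Rpn1, at -0.01 in that comparison, ran from -0.034 to 0.019 when 1 library was left out, and its sign turned without Jmjd3 KO replicate 2 (0.001) and when Tdt Control replicate 2 was left out (0.019). The other genes between 80 and 90 Mb that passed in Utx KO numbered 10, against 18 with no filter, 5 with length offsets, 5 with the block, 4 with the 4 libraries compared and 15 with DESeq2, a count added after seeing the data.

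No link between same-numbered replicates is stated beyond the number. Their deviations from the group means correlated at -0.011, -0.008 and -0.053 between pairs of groups. With 2 libraries per group, these values cannot show whether same-numbered libraries share a batch. With the replicate block, 133 genes passed in Utx KO against Tdt Control, 322 in Jmjd3 KO against Tdt Control, 948 in Jmjd3 KO against Utx KO, and 0 of the 10 genes in Jmjd3 KO against Tdt Control. Depth is thinnest for Abtb1 in Jmjd3 KO and Tdt Control, and for Kbtbd12 in Utx KO (98 and 96 estimated reads).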
